A study of Mus musculus with 60 samples.

Results

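The genes described here are Trp53, which encodes the tumour suppressor p53, and 9 genes that p53 is known to switch on after DNA damage: Mdm2, Ccng1, Trp53inp1, Bbc3, Bax, Eda2r, Zmat3, Phlda3 and Plk2. They were found by their gene symbol in 2 tables of read counts per gene from mouse fibroblasts, and make up 10 of the 56980 gene identifiers of each table. All 10 passed the filter on low counts in both tables. The lowest count of any of them in any library was 151 in the first table and 218 in the second, both for Bbc3.

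p53 is a transcription factor that is held at a low level in unstressed cells, because the ubiquitin ligase Mdm2 binds it and sends it to the proteasome. DNA damage activates the kinases ATM and ATR, which free p53 from Mdm2 mainly by modifying the proteins, so the level of Trp53 RNA says little about how active p53 is, while the RNA of its targets is read as the output. Among the targets, Mdm2 closes a negative feedback loop, Ccng1 encodes cyclin G1, which recruits a phosphatase to Mdm2, and Trp53inp1 encodes a stress-induced nuclear protein that helps p53 to be phosphorylated. Bbc3 (Puma) and Bax act in mitochondrial apoptosis, Bbc3 as a BH3-only activator and Bax as the protein that forms pores in the outer membrane. Eda2r is a receptor of the TNF receptor family, Zmat3 a zinc finger protein that binds RNA and alters splicing, Phlda3 a PH domain protein that restrains Akt, and Plk2 a polo-like kinase. Ercc1 forms, with Xpf, the nuclease that cuts damaged strands in nucleotide excision repair and in the repair of interstrand crosslinks, so cells without full Ercc1 function are used as a model of persistent DNA damage.

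The first table (reprogramming) held 36 libraries of tail tip fibroblasts in 12 groups of 3. D/KO cells, labelled 4FJ_ERCC1_(d/-), were from a male animal aged 8 weeks, and WT cells, labelled 4FJ_(+/-)_OCT4-GFP, from a female mouse of 22 weeks. Both lines carried a doxycycline-inducible cassette for Oct4, Klf4, Sox2 and Myc in Col1a1 and the M2-rtTA transactivator in ROSA26, and were sampled at day 0 without doxycycline and after 2 or 4 days at 2 µg/ml. Each time point was taken without and with VC, which is 50 µg/ml ascorbic acid and 3 µM of the GSK3 inhibitor CHIR99021. The second table (inhibitor) held 24 libraries in 8 groups of 3. Tail tip fibroblasts labelled ERCC1_(d/-), from a female mouse of 4 weeks, were left as controls or treated with an inhibitor. Repsox and A83-01 inhibit the TGFβ receptor kinase ALK5, DMH-1 inhibits the BMP receptor kinase ALK2, and Vactosertib, an ALK5 inhibitor, is described as acting on ALK2 too. Repsox and Vactosertib shared one dose and A83-01 and DMH-1 another. Control WT cells, labelled ERCC1_(+/+)_WT, were from tail tip and from skin of a female mouse of 14 weeks. A last group, WT 4F cells of the 4FJ_(+/-)_OCT4-GFP line from a female mouse of 22 weeks with the treatment label TGFB, had no untreated counterpart in its table, so its levels are given without a test. In each table the genotypes differed in age and line too, and in the first also in sex, so that genotype, age, line and, there, sex cannot be told apart. The 3 libraries of a group are not labelled as separate mice, and p-values measure only the spread between libraries, which may be technical.

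The 7 stretches of the genome printed here were chosen because they hold the sequence through which p53 is known to reach such genes. The consensus p53 response element, 2 half-sites of 10 bases placed end to end, was searched from 2000 bases before to 2000 bases after the start site of each gene (canonical GENCODE M39 transcript, GRCm39, sequence of the gene's own strand), with the C at position 4 and the G at position 7 of each half-site fixed and at most 2 mismatches elsewhere. The element is its own reverse complement, so that 1 strand covers both. An element was found for 5 of the 10 genes, against 848 of 21770 protein-coding genes (3.9%). With at most 1 mismatch the counts were 2 of 10 and 121 of 21770 (0.556%), and with no mismatch 1 of 10, Zmat3, and 15 of 21770 (0.0689%). No element was found in these windows for Trp53, Mdm2, Trp53inp1, Bbc3 or Phlda3, which says only that these letters are not there at this setting. Below, capitals mark the 20 bases of the element and lower case the 20 bases on each side.
Ccng1, upstream: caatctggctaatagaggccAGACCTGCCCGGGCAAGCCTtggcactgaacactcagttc
Ccng1, intron: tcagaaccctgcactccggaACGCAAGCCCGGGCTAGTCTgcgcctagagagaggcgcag
Bax, intron: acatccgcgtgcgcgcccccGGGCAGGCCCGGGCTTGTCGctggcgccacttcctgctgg
Eda2r, intron: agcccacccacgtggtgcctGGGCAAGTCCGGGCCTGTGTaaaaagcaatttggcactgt
Zmat3, intron: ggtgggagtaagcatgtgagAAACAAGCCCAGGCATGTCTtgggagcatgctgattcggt
Plk2, distal upstream: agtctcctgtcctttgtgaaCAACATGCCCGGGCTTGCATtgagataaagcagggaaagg
Plk2, proximal upstream: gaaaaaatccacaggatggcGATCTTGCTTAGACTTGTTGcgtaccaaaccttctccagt
Positions of the elements are counted from the start site along the gene, with negative values upstream. The Ccng1 stretches are chr11:40646269-40646328, whose element begins at -170, and chr11:40645743-40645802, whose element begins at 356 in intron 1, both on the minus strand and both with 1 mismatch. In Bax (chr7:45115978-45116037, minus strand) the element begins at 308 in intron 1, and in Eda2r (chrX:96420120-96420179, minus strand) at 680 in intron 1, each with 2 mismatches. The perfect Zmat3 element (chr3:32418460-32418519, minus strand) begins at 1409, also in intron 1. The Plk2 elements (chr13:110529396-110529455 and chr13:110530908-110530967, plus strand) begin at -1599 and -87, each with 2 mismatches. A match is a description of the letters and not evidence of binding in these cells.

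The gene models counted by the authors lie on chromosomes 11 (Trp53, 69471185 to 69482699, plus strand, and Ccng1, 40639379 to 40646138, minus), 10 (Mdm2, 117524780 to 117546663, minus), 4 (Trp53inp1, 11156431 to 11174379, plus), 7 (Bbc3, 16042318 to 16052130, plus, and Bax, 45111121 to 45116322, minus), X (Eda2r, 96377446 to 96420822, minus), 3 (Zmat3, 32388941 to 32420163, minus), 1 (Phlda3, 135693857 to 135696874, plus) and 13 (Plk2, 110531580 to 110537378, plus) of GRCm39. In gene span, Trp53 overlaps Wrap53 and the noncoding RNA gene Gm57392 on the other strand. Ccng1 overlaps Nudcd2 there, and Mdm2 the noncoding RNA gene Gm56970. The counted exons of Trp53, Ccng1 and Mdm2 shared 0 bases with those of any other counted gene. Whether the counting used strand is not given in the sources used here. Trp53 also has a pseudogene, Trp53-ps. Bax shares 192 exon bases (12.2% of its length) with Gm45808 on its own strand.

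The libraries of the reprogramming table had 16538374 to 18484951 counts each and the inhibitor libraries 17102639 to 30599138. Fibroblast markers had the highest summed level of the 7 cell type lists in every group, and all 10 of them were detected in all groups. Ercc1 RNA was 8.04 to 18.6 CPM in the D/KO and 16.9 to 29.1 CPM in the WT libraries of the reprogramming table, and 13.2 to 23.5 CPM in D/KO against 13.3 to 21.7 CPM in WT tail tip libraries of the inhibitor table. The d allele is a truncated Ercc1 allele whose RNA can still be counted, so these levels are a limited check of the labels. Summed endothelial markers (5 genes) were 149 to 803 CPM in the D/KO and 0.165 to 1.64 CPM in the WT reprogramming libraries, where all 5 stayed under 1 CPM. Summed macrophage and leukocyte markers (6 genes) were 2.45 to 13.7 CPM against 42 to 147 CPM. In the inhibitor table the endothelial sum was 44.7 to 58.1 CPM in control WT and 324 to 365 CPM in control D/KO cells. There, 3 libraries stood apart in how long and short transcripts were represented, namely WT skin replicate 1, Repsox replicate 2 and control WT replicate 3, and results that rest on them are given with and without them below. In the reprogramming table D/KO day 0 replicate 1 had 0.257% of its counts on mitochondrial genes and a fibroblast sum of 126353 CPM, beside 0.656% and 0.722% and 85169 and 90979 CPM in the other D/KO day 0 libraries, and the calls lost without it are named with each gene.

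Levels are CPM, counts of a gene scaled to the library size with TMM factors. Per kilobase of gene model, Phlda3 and Ccng1 were the most abundant of the 10 genes, with medians over the libraries of 199 and 143 CPM per kb in the reprogramming table and 197 and 164 in the inhibitor table. Bax followed at 52.5 and 55.6 CPM per kb. Mdm2, Trp53, Zmat3, Trp53inp1 and Plk2 lay between 15.2 and 25.9 CPM per kb in both tables, and Bbc3 and Eda2r were lowest, at 9.73 and 8.03 CPM per kb in the reprogramming table and 11.7 and 8.4 in the inhibitor table. The range between the highest and lowest group means in the reprogramming table was narrowest for Ccng1 (1.29-fold) and widest for Bbc3 (4.01-fold). In the inhibitor table it was narrowest for Trp53 (1.63-fold) and widest for Plk2 (9.28-fold), Mdm2 (5.40-fold) and Ccng1 (4.14-fold), whose highest group was in each case the WT 4F group labelled TGFB.

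**Figure D1:**
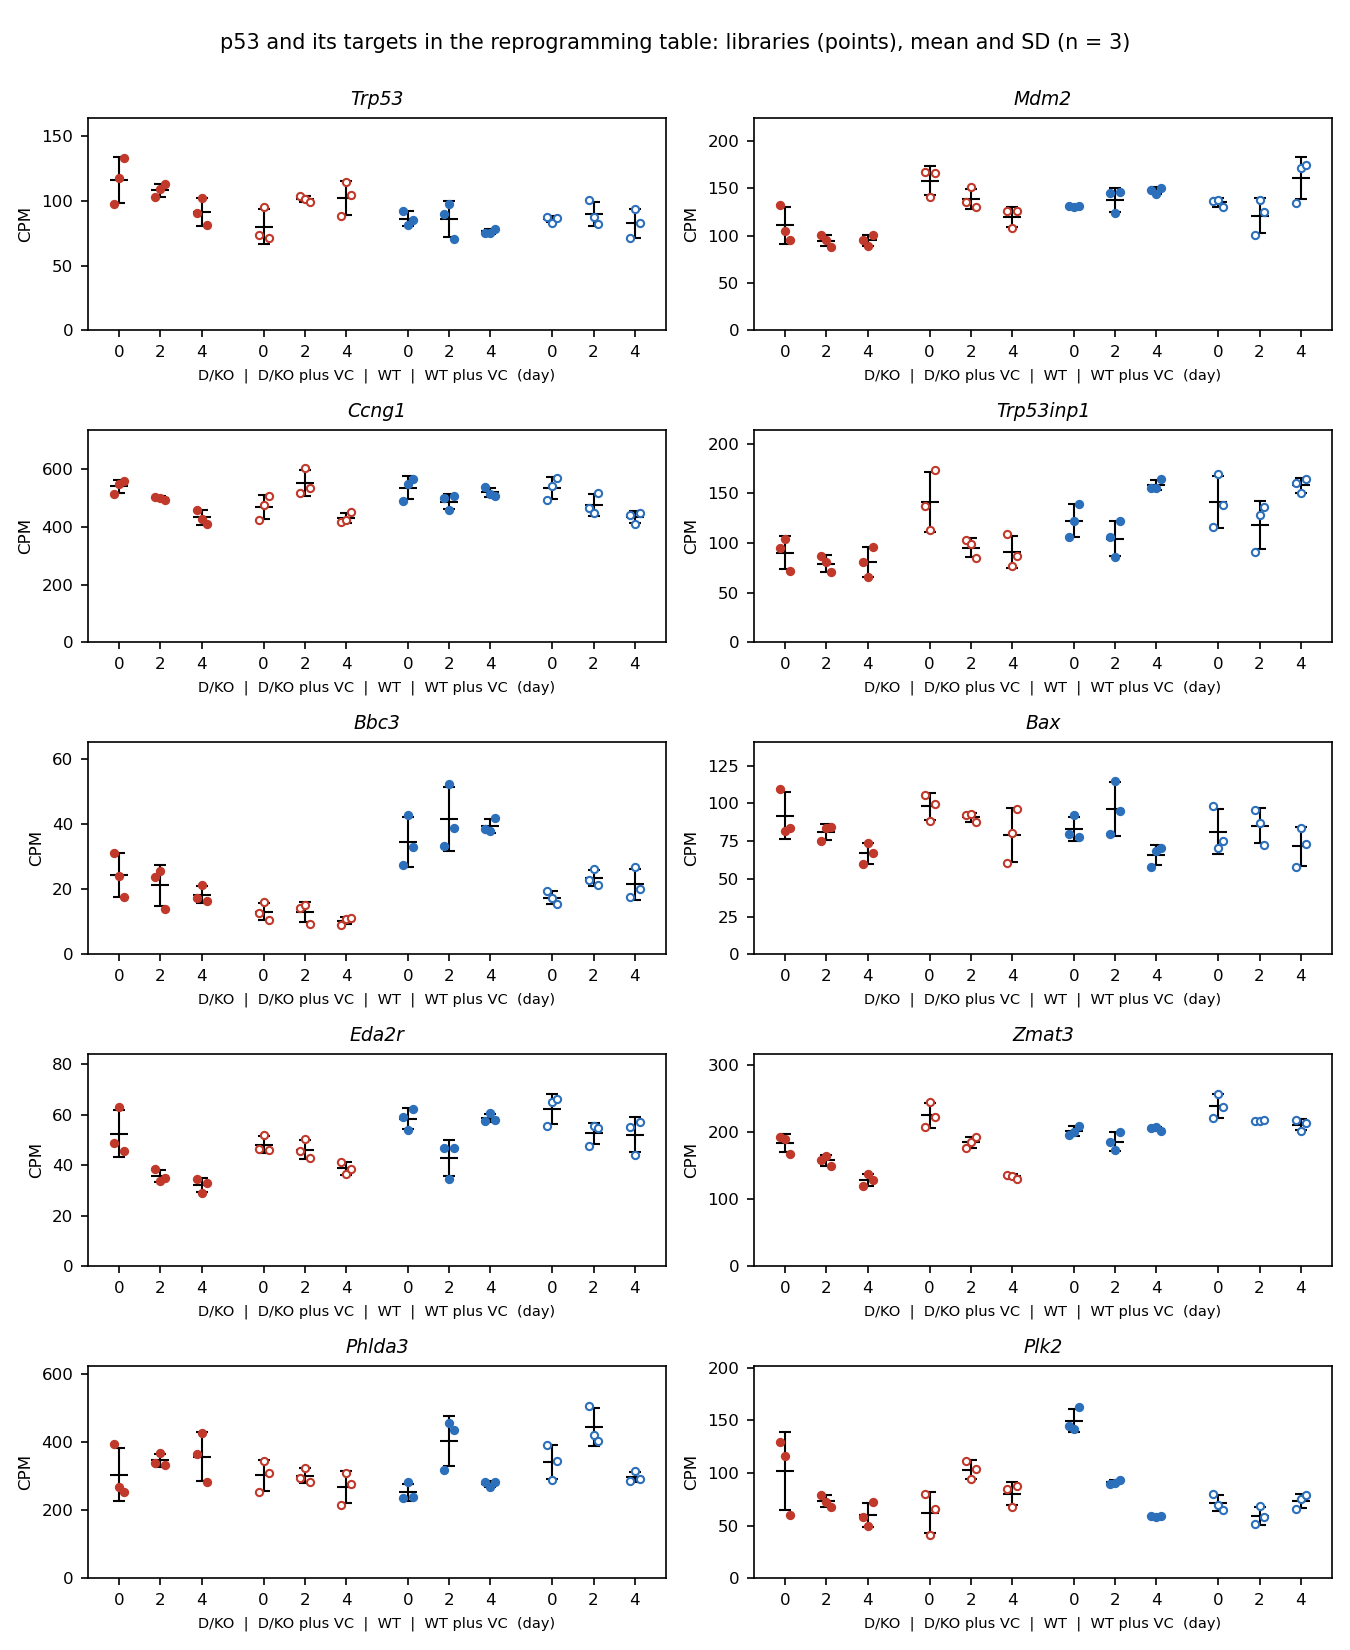
Level (CPM) of each of the 10 genes by day in the reprogramming table, 1 panel a gene. Red is D/KO and blue WT, open symbols are plus VC, points are libraries, bars are group means and error bars SD (n = 3). Eda2r and Zmat3 decline over the days in D/KO cells without VC, Plk2 declines in WT cells without VC, and the open Bbc3 symbols lie below the filled ones at every day.

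In D/KO cells without VC, Eda2r and Zmat3 were called lower than at day 0 at both day 2 and day 4 of reprogramming. Plk2, Bax, Trp53 and Ccng1 were called lower at day 4 only, and none of the 10 genes was called higher. Day 4 was not tested against day 2, so the order of these changes is open. For each gene edgeR's quasi-likelihood F-test (two-sided) was used, adjusted over all genes by Benjamini-Hochberg, and a difference was called at an adjusted p under 0.05. At day 2, 2 of the 10 genes were called, both lower, where 27.4% of all 15832 tested genes were called in either direction and 13.2% lower. At day 4 it was 6 of 10, all lower, against a background of 37% in either direction and 18.7% lower. The median log2 fold change of the 10 genes was -0.19 at day 2 and -0.38 at day 4, beside -0.00119 and 7.62e-05 over all tested genes. In bulk RNA, fewer cells that express a gene and less of its RNA per cell cannot be told apart.

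Eda2r measured 48.7, 62.9 and 45.7 CPM in the day 0 replicates, 38.3, 33.6 and 34.9 CPM at day 2 and 34.5, 28.9 and 32.97 CPM at day 4 in D/KO cells. Every library of days 2 and 4 lay below every day 0 library. The log2 fold changes against day 0 were -0.56 ± 0.12 SE, adjusted p = 0.000477 at day 2, and -0.71 ± 0.12 SE, adjusted p = 1.15e-05 at day 4. Zmat3, the gene with the perfect element, was at 193, 191 and 168 CPM at day 0, 159, 165 and 149.9 CPM at day 2 and 119.5, 138 and 129 CPM at day 4. Its 3 groups did not overlap, and the log2 fold changes were -0.22 ± 0.08 SE, adjusted p = 0.0451, and -0.52 ± 0.08 SE, adjusted p = 3.54e-06. Both day 4 calls and the day 2 call of Eda2r were kept with each of the libraries left out in turn, while the day 2 call of Zmat3 was lost without D/KO day 0 replicate 1 or 2 or D/KO day 2 replicate 1, 2 or 3, at an adjusted p of up to 0.175, which left 1 called gene at day 2. That call was also lost without the filter on low counts (adjusted p = 0.275) and in a fit of only the groups compared (0.115). With D/KO day 0 replicate 3 left out, 4 genes were called at day 2.

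Plk2 in D/KO cells varied most at day 0, where the 3 libraries had 129, 116 and 60.1 CPM, and reached 58.5, 49.7 and 72.03 CPM at day 4. One day 0 library therefore lay inside the day 4 range. The log2 fold change at day 4 was -0.76 ± 0.18 SE, adjusted p = 0.00108. Ccng1 went from 516, 549 and 561 CPM to 459.7, 429 and 411 CPM, all day 4 libraries below all day 0 libraries, with a log2 fold change of -0.32 ± 0.09 SE, adjusted p = 0.00341. Bax, 109.7, 81.8 and 83.7 CPM at day 0 and 59.98, 74.04 and 67.2 CPM at day 4, also did not overlap. It changed by a log2 fold change of -0.45 ± 0.15 SE, adjusted p = 0.0182, a call lost without D/KO day 0 replicate 1 or D/KO day 4 replicate 1, at an adjusted p of up to 0.162. Trp53 itself was at 97.8, 118 and 133 CPM and 90.7, 102 and 81.04 CPM, with day 4 replicate 2 inside the day 0 range. Its log2 fold change was -0.35 ± 0.12 SE, adjusted p = 0.0255, lost without D/KO day 0 replicate 2 or 3 or D/KO day 4 replicate 1 or 3, at an adjusted p of up to 0.178. The remaining genes, Mdm2, Trp53inp1, Bbc3 and Phlda3, were not called at either time, with day 4 log2 fold changes of -0.22, -0.16, -0.41 and 0.23. In a fit of only the groups compared, the day 4 calls of Ccng1 (adjusted p = 0.113) and Trp53 (0.119) were lost.

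Markers of cell types moved in the same D/KO libraries. The summed level of 10 fibroblast markers was 85169 to 126353 CPM at day 0 and 41720.1 to 42542 CPM at day 4 (7 called lower and 1 higher). That of 5 endothelial markers was 709 to 803 CPM and 271 to 315 CPM (5 of 5 lower), and that of 10 keratinocyte markers 6.69 to 7.61 CPM and 71.1 to 85.4 CPM (6 of 8 tested higher). At day 2 the sums were 56556 to 58542 CPM for fibroblast and 466 to 552 CPM for endothelial markers, and 6 of 8 keratinocyte markers were higher. Cdh1 and Krt5 were at 0 in all day 0 libraries of D/KO cells, and no marker of these 3 lists was at 0 in all day 4 libraries. The share of mitochondrial counts was 0.257% to 0.722% at day 0, 0.987% to 1.26% at day 2 and 1.10% to 1.42% at day 4, with day 0 below both other groups. The 13 proliferation genes summed to 206 to 242 CPM at day 0 and 287 to 359 CPM at day 2 (8 called higher). At day 4 that sum was 221 to 248 CPM. Leukocyte markers summed to 13.1 to 13.7 CPM at day 0 and 6.64 to 6.95 CPM at day 4. Schwann cell markers summed to 8.25 to 11.4 and 15.4 to 20.5 CPM at the same days. What part these measures had in the falls of the p53 targets was not tested.

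In WT cells without VC, Plk2 fell at both times, Eda2r fell and Phlda3 rose at day 2, and no other of the 10 genes was called. That was 3 of 10 at day 2, where 10.6% of all tested genes were called, and 1 of 10 at day 4, where 24.5% were. Plk2 was at 144, 142 and 162 CPM at day 0, 89.8, 90.9 and 93.6 CPM at day 2 and 59.4, 58.03 and 59.01 CPM at day 4. The 3 groups were fully separate, each lower than the one before. The log2 fold changes were -0.71 ± 0.18 SE, adjusted p = 0.00748, and -1.35 ± 0.19 SE, adjusted p = 6.47e-07. Phlda3 was at 237, 282 and 238 CPM at day 0, 319, 456 and 435 CPM at day 2 and 282, 267 and 283 CPM at day 4, so that day 2 lay above both other groups. Its log2 fold change was 0.68 ± 0.16 SE, adjusted p = 0.00273, at day 2, and 0.14 (not called, adjusted p = 0.569) at day 4. Eda2r had a similar excursion downward, from 59.2, 53.98 and 62.05 CPM to 46.7, 34.6 and 46.9 CPM at day 2 and 57.6, 60.5 and 57.7 CPM at day 4. The day 2 log2 fold change was -0.45 ± 0.12 SE, adjusted p = 0.0104, a call lost without WT day 0 replicate 3 or WT day 2 replicate 2, at an adjusted p of up to 0.133, and the day 4 value was 0.01. Proliferation genes were called lower in 7 of 13 cases in WT cells at day 4 and in none at day 2. Keratinocyte markers summed to 40.1 to 43.8 CPM at day 2. WT day 2 replicate 3 had 0.479% of its counts on mitochondrial genes and a fibroblast sum of 71381 CPM. The other day 2 libraries had 1.14% and 0.988%, and 52628 and 52567.5 CPM. No day 2 call was lost without replicate 3. At day 4, leukocyte markers summed to 54.3 to 68.4 CPM beside 76.7 to 147 CPM at day 0 (3 of 6 called lower) and keratinocyte markers to 47.3 to 50.8 beside 25.3 to 34.97 CPM (2 of 8 tested higher and 1 lower). Mitochondrial counts were 1.47% to 1.58% at day 4 beside 0.888% to 1.05% at day 0. The part of these measures in the values was not tested. The 3 WT day 4 libraries also stood together in the transcript length index that is described further on, at 0.478 to 0.489 beside -0.0262 to 0.201 at day 0. With that index as a covariate, Plk2 at day 4 was at -1.46 and kept its call, and 3 of the 10 genes were called in place of 1, beside 22% of all genes. The count at day 4 was 5 with only the groups compared, beside 46.3% of all genes called in that fit, and 3 without the filter on low counts, beside 12.1%.

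The change in D/KO cells was tested directly against the change in WT cells. At day 2 none of the 10 genes differed, by edgeR or by DESeq2, beside 1 at an unadjusted p under 0.05 and 6.54% of all genes called. At day 4, 2 of 10 differed, where 14.3% of all genes did. The D/KO change was lower than the WT change for Eda2r (difference of log2 fold changes -0.71 ± 0.17 SE, adjusted p = 0.00312) and for Zmat3 (-0.54 ± 0.12 SE, adjusted p = 0.00112), which was at 196, 200.02 and 210.05 CPM in the WT day 0 and 206, 208 and 201 CPM in the WT day 4 libraries. Plk2, which fell in both lines, gave a difference of 0.59 with a 95% interval of 0.06 to 1.11. A further 4 genes had an unadjusted p under 0.05 at day 4 but missed the adjusted threshold, and the share of all genes at that p was not computed. The changes of 7 of 10 fibroblast markers were also lower in D/KO than in WT cells at day 4, where the WT sum was 55576 to 57609.7 CPM at day 0 and 48999 to 51422 CPM at day 4. The changes of 6 of 13 proliferation genes, 2 of 8 keratinocyte and 2 of 5 Schwann cell markers were higher in D/KO cells. Whether these lists had a part in the Eda2r and Zmat3 differences was not tested.

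In D/KO cells with VC, Zmat3 and Trp53inp1 fell and Trp53 rose at both times. Plk2 and Ccng1 were called at day 2, both higher, and Mdm2 and Eda2r at day 4, both lower. These comparisons use day 0 plus VC as the baseline. The counts were 5 of 10 at day 2 (47.4% of all genes called) and 5 of 10 at day 4 (54.1%), so the share of the 10 genes was close to that of all genes. Zmat3 was at 207, 245 and 223 CPM at day 0 plus VC, 177, 185 and 193 CPM at day 2 plus VC and 137, 135 and 129.99 CPM at day 4 plus VC. The groups were again fully separate and in descending order. Log2 fold changes were -0.28 ± 0.08 SE, adjusted p = 0.00457, and -0.75 ± 0.08 SE, adjusted p = 1.15e-09, the first lost without the filter on low counts (adjusted p = 0.0642).

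Mdm2 measured 167, 140.2 and 166 CPM at day 0 plus VC, 136, 151 and 130.00 CPM at day 2 plus VC and 125, 108 and 126 CPM at day 4 plus VC. All libraries of day 4 lay below those of day 0. The log2 fold change at day 4 was -0.40 ± 0.11 SE, adjusted p = 0.00334. Trp53inp1 spread more, at 137, 114 and 173, then 103, 98.9 and 84.6, then 109, 76.9 and 86.8 CPM. It changed by -0.57 ± 0.17 SE, adjusted p = 0.00531 at day 2, and by -0.64 ± 0.17 SE, adjusted p = 0.00153 at day 4, the first of which was lost without D/KO day 0 plus VC replicate 3, at an adjusted p of up to 0.0727. Trp53 moved the other way, from 73.9, 95.4 and 70.9 to 104, 102 and 99.00 and 87.96, 114 and 104 CPM. Its log2 fold changes were 0.34 ± 0.12 SE, adjusted p = 0.0225, and 0.35 ± 0.12 SE, adjusted p = 0.0164, lost at day 2 without D/KO day 0 plus VC replicate 1 or 3 or D/KO day 2 plus VC replicate 1, at an adjusted p of up to 0.126, and at day 4 without D/KO day 0 plus VC replicate 1 or 3 or D/KO day 4 plus VC replicate 2, at an adjusted p of up to 0.104. The day 4 call of Trp53 was also lost in a fit of only the groups compared (adjusted p = 0.0585). Without D/KO day 0 plus VC replicate 1 or 3, 3 of the 10 genes were called at day 2.

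Plk2 in D/KO cells with VC was at 79.96, 41.6 and 65.4 CPM at day 0, 111, 93.8 and 104 CPM at day 2 and 85.2, 67.8 and 87.7 CPM at day 4. Day 2 stood above both other groups without overlap, by 0.72 ± 0.19 SE, adjusted p = 0.00143 over day 0, and the day 4 value of 0.36 was not called. Against day 0 without VC, where Plk2 was at 129, 116 and 60.1 CPM, the day 2 log2 fold change was 0.02 and the call was lost (adjusted p = 0.942). Ccng1 was at 426, 477 and 509 CPM at day 0, 519, 606 and 536 CPM at day 2 and 417, 424 and 451 CPM at day 4 plus VC. Its day 2 change of 0.23 ± 0.09 SE, adjusted p = 0.027 was lost without D/KO day 0 plus VC replicate 1 or D/KO day 2 plus VC replicate 2, at an adjusted p of up to 0.174. It was lost too against day 0 without VC, at 0.03 (adjusted p = 0.798), without the filter on low counts (0.126) and in a fit of only the groups compared (0.104). Eda2r, at 46.4, 51.9 and 46.2 CPM at day 0 and 41.2, 36.4 and 38.4 CPM at day 4, changed by -0.31 ± 0.12 SE, adjusted p = 0.0278, lost without D/KO day 0 plus VC replicate 2 or D/KO day 4 plus VC replicate 2 or 3, at an adjusted p of up to 0.111. That call was also lost without the filter (0.0559) and with only the groups compared (0.0556), and was kept against day 0 without VC.

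Of the 10 calls in D/KO cells with VC, 8 depended on the baseline, and VC alone also changed Trp53, Mdm2, Trp53inp1, Zmat3 and Plk2 at day 0, as given further on. The calls kept against day 0 without VC were those of Zmat3 and Eda2r at day 4. Against day 0 without VC, the Trp53 log2 fold change of D/KO cells with VC became -0.19 at day 2 and -0.18 at day 4, that of Mdm2 at day 4 became 0.11, that of Zmat3 at day 2 became 0.0089, and those of Trp53inp1 became 0.0774 and 0.0069. None of these values passed the threshold with that baseline, nor did the day 2 values of Plk2 and Ccng1 given above. At day 4 plus VC, Zmat3 in D/KO cells was also below day 0 without VC: 137, 135 and 129.99 CPM beside 193, 191 and 168 CPM. Summed keratinocyte markers in D/KO cells at day 4 plus VC were 458 to 580 CPM, beside 10.8 to 17.6 CPM at day 0 plus VC and 6.69 to 7.61 CPM at day 0 without VC. Fibroblast markers summed to 188061 to 257760.00 CPM at day 0 plus VC and 35663 to 36561 CPM at day 4 plus VC (8 of 10 called lower), and all 13 proliferation genes were called higher at day 4 plus VC. Mitochondrial counts were 0.469% to 1.05% at day 0 plus VC and 1.34% to 2.20% at day 4 plus VC, without overlap. At day 2 plus VC that share was 1.499% to 1.62%, and 9 of 13 proliferation genes were called higher. Fibroblast markers were lower there in 8 of 10 cases and higher in 2, and endothelial markers lower in 3 of 5. Keratinocyte markers were higher there in 5 of 8 tested cases and lower in 1. At days 0 and 4 plus VC endothelial markers summed to 253 to 297 and 472 to 671 CPM (2 of 5 higher, 2 lower). Leukocyte markers summed to 10.2 to 12.98 and 2.45 to 2.91 CPM (2 of 6 lower). The part of these measures in the result was not tested.

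In WT cells with VC, few of the 10 genes were called. None was called at day 2 by edgeR or DESeq2 (1 had an unadjusted p under 0.05), where 27.5% of all genes were called. The day 2 count was 2 without the filter on low counts (13.3% of all genes), 2 with only the groups compared (32%), 3 with the length index as a covariate (32.3%) and 3 against day 0 without VC (37.3%). Against day 0 without VC the day 4 count was 4 (39.3%). In the fit reported here, only Ccng1 was called at day 4, where 44.7% were. Ccng1 was at 493, 542 and 572 CPM at day 0 plus VC and 442, 409.8 and 449 CPM at day 4 plus VC, with no overlap, and the log2 fold change was -0.30 ± 0.09 SE, adjusted p = 0.00491. Without WT day 0 plus VC replicate 1, 1 gene was called at day 2 and 3 at day 4, and without WT day 4 plus VC replicate 1, 2 were called at day 4. Mdm2 in these cells was at 137, 138 and 129.98 CPM at day 0 and 135, 171 and 175 CPM at day 4, a change of 0.25 that was not called (adjusted p = 0.0734). Proliferation genes were called lower in 11 of 13 cases at day 2 plus VC and 10 of 13 at day 4 plus VC. Fibroblast markers summed to 158934 to 174467 CPM at day 0 plus VC and 63061 to 74409.7 CPM at day 4 plus VC (6 of 10 called lower and 2 higher), keratinocyte markers to 46.1 to 49.99 and 73.9 to 94.5 CPM (5 of 8 tested higher) and leukocyte markers to 70.2 to 119 and 41.96 to 44.5 CPM (3 of 6 lower). The length index described further on was -0.303 to 0.175 at day 0 plus VC and 0.213 to 0.481 at day 4 plus VC, and with it as a covariate 4 of the 10 genes were called at day 4 in place of 1, beside 40.9% of all genes. Mitochondrial counts were 0.919% to 0.989% at day 0 plus VC and 1.61% to 2.32% at day 4 plus VC. The part of these measures in the result was not tested.

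Tested against the WT change, the D/KO change with VC differed for 2 of 10 genes at day 2 (13.9% of all genes) and 3 of 10 at day 4 (29.4%). At day 2 the difference was 0.99 ± 0.26 SE, adjusted p = 0.00814 for Plk2, which was at 80.2, 69.4 and 64.7 CPM in WT cells at day 0 plus VC and 51.7, 68.7 and 57.8 CPM at day 2. For Ccng1 it was 0.40 ± 0.12 SE, adjusted p = 0.0256, a call that was lost without D/KO day 0 plus VC replicate 1, D/KO day 2 plus VC replicate 2, WT day 0 plus VC replicate 2 or 3 or WT day 2 plus VC replicate 1 or 2, at an adjusted p of up to 0.103. The Ccng1 difference was lost too with day 0 without VC as the baseline (0.20, adjusted p = 0.286), without the filter (0.13) and with only the groups compared (0.107), while that of Plk2 was 1.35 and kept with that baseline. At day 4 the differences were -0.65 ± 0.16 SE, adjusted p = 0.00227 for Mdm2, -0.80 ± 0.24 SE, adjusted p = 0.00931 for Trp53inp1, and -0.57 ± 0.12 SE, adjusted p = 0.000261 for Zmat3. With day 0 without VC as the baseline the differences of Mdm2 (-0.18, adjusted p = 0.491) and Trp53inp1 (-0.36, adjusted p = 0.305) were lost and that of Zmat3 (-0.52) was kept. The WT changes in the same genes were 0.25, 0.16 and -0.18, none of them called. The endothelial and leukocyte marker sums given above separated the lines at every day. At day 4 plus VC the changes of all 13 proliferation genes were higher and those of 8 of 10 fibroblast markers lower in D/KO than in WT cells. These counts were the same at day 2 plus VC. The part of these lists in the differences was not tested.

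Bbc3 was the one gene of the 10 called in all 6 comparisons of VC, lower with VC in both lines and at all 3 days. In D/KO cells Bbc3 was at 31.1, 24.2 and 17.7 CPM without and 12.8, 16.04 and 10.6 CPM with VC at day 0. At day 2 the values were 23.9, 25.8 and 13.9 and 14.2, 15.3 and 9.46 CPM, and at day 4 17.2, 21.3 and 16.3 and 9.09, 10.9 and 11.1 CPM. In those cells day 0 and day 4 did not overlap between the treatments and day 2 did. The log2 fold changes were -0.89 ± 0.22 SE, adjusted p = 0.00238, at day 0, -0.70 ± 0.22 SE, adjusted p = 0.0152, at day 2, and -0.82 ± 0.22 SE, adjusted p = 0.0037, at day 4, and the day 2 call was lost without D/KO day 2 replicate 1 or 2 or D/KO day 2 plus VC replicate 3, at an adjusted p of up to 0.127.

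WT cells had 27.6, 42.9 and 33.1 CPM of Bbc3 without and 19.5, 17.4 and 15.4 CPM with VC at day 0. At day 2 they had 33.2, 52.4 and 38.95 and 22.9, 26.1 and 21.4 CPM, and at day 4 38.6, 37.9 and 41.8 and 17.7, 26.9 and 20.01 CPM. All 3 days separated fully. The log2 fold changes of Bbc3 were -0.98 ± 0.21 SE, adjusted p = 0.000522, -0.82 ± 0.21 SE, adjusted p = 0.00326, and -0.87 ± 0.21 SE, adjusted p = 0.00196, all kept with any library left out. Across the 6 comparisons of VC the share of all genes called was 26.1% (D/KO day 0), 25.3% (D/KO day 2), 34.5% (D/KO day 4), 29.4% (WT day 0), 26.6% (WT day 2) and 22.4% (WT day 4), and the count among the 10 genes was 6, 5, 3, 4, 3 and 2. With 1 library left out these counts ran from 2 to 4 (D/KO day 2), from 1 to 4 (D/KO day 4), from 2 to 3 (WT day 0) and from 1 to 2 (WT day 4), and the libraries that ended a call are named with each gene.

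Cell type markers and proliferation genes moved with VC as well. In D/KO cells at day 0, 5 endothelial markers summed to 709 to 803 CPM without and 253 to 297 CPM with VC (5 of 5 called lower), and 10 fibroblast markers to 85169 to 126353 and 188061 to 257760.00 CPM (6 higher and 2 lower). At day 4 keratinocyte markers summed to 71.1 to 85.4 CPM without and 458 to 580.3 CPM with VC in D/KO cells. In WT cells at day 0 the fibroblast sums were 55576 to 57609.7 and 158934 to 174467 CPM (6 higher). The 13 proliferation genes were called higher with VC in 1, 3 and 13 cases in D/KO cells at days 0, 2 and 4 and in 13, 10 and 13 cases in WT cells, and never lower. The part of these measures in the Bbc3 result and in those that follow was not tested.

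Mdm2 was higher with VC at each day in D/KO cells. The levels were 133, 105 and 94.8 CPM against 167, 140.2 and 166 CPM at day 0, 100.2, 95.7 and 88.3 against 136, 151 and 130.00 CPM at day 2, and 95.8, 89.1 and 100.2 against 125, 108 and 126 CPM at day 4. The libraries with VC lay above those without at all 3 days. Log2 fold changes of Mdm2 were 0.51 ± 0.11 SE, adjusted p = 0.000779, 0.55 ± 0.11 SE, adjusted p = 0.000357, and 0.33 ± 0.11 SE, adjusted p = 0.0224, the last lost without D/KO day 4 replicate 1 or 2 or D/KO day 4 plus VC replicate 1 or 3, at an adjusted p of up to 0.0842. It was also lost with only the groups compared (adjusted p = 0.0622). In WT cells Mdm2 was not called at any day, with values of 0.04, -0.19 and 0.12. Whether the effect of VC differed between the lines was not tested.

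Plk2 at day 0 was lower with VC in both lines, at 79.96, 41.6 and 65.4 CPM against 129, 116 and 60.1 CPM in D/KO cells and 80.2, 69.4 and 64.7 CPM against 144, 142 and 162 CPM in WT cells. The WT groups were far apart and the D/KO groups overlapped, and the log2 fold changes were -1.07 ± 0.18 SE, adjusted p = 2.53e-05, in WT and -0.70 ± 0.19 SE, adjusted p = 0.0039, in D/KO cells, where the call was lost without D/KO day 0 replicate 1 or D/KO day 0 plus VC replicate 2, at an adjusted p of up to 0.0602, and with only the groups compared (adjusted p = 0.0737). At day 2 Plk2 was higher with VC in D/KO cells (0.49 ± 0.18 SE, adjusted p = 0.0451, lost without D/KO day 2 replicate 1, 2 or 3 or D/KO day 2 plus VC replicate 1 or 3, at an adjusted p of up to 0.136) and lower in WT cells (-0.62 ± 0.18 SE, adjusted p = 0.0111, lost without WT day 2 plus VC replicate 1, at an adjusted p of up to 0.0659). At day 4 it was not called in either line.

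Of the other genes, Trp53 fell and Trp53inp1 rose with VC in D/KO cells at day 0. Trp53 was at 97.8, 118 and 133 CPM without and 73.9, 95.4 and 70.9 CPM with VC (-0.54 ± 0.12 SE, adjusted p = 0.00116). Trp53inp1 was at 94.7, 104 and 72.1 and 137, 114 and 173 CPM (0.64 ± 0.17 SE, adjusted p = 0.00358, lost without D/KO day 0 plus VC replicate 3, at an adjusted p of up to 0.0521). Neither pair of groups overlapped. Zmat3 was called higher with VC in 4 of the 6 comparisons, with log2 fold changes of 0.29 (D/KO day 0), 0.23 (D/KO day 2), 0.24 (WT day 0) and 0.22 (WT day 2). All 4 calls were lost without single libraries, the one in D/KO cells at day 0 without D/KO day 0 replicate 3 or D/KO day 0 plus VC replicate 2, at an adjusted p of up to 0.0652. The call in D/KO cells at day 2 was lost without D/KO day 2 replicate 1 or 3 or D/KO day 2 plus VC replicate 2 or 3, at an adjusted p of up to 0.149. In WT cells the day 0 call was lost without WT day 0 replicate 1 or 2 or WT day 0 plus VC replicate 2 or 3, at an adjusted p of up to 0.137, and the day 2 call without WT day 2 replicate 1 or 2 or WT day 2 plus VC replicate 1, 2 or 3, at an adjusted p of up to 0.161. Single calls lost in the same way were those of Eda2r in D/KO cells at day 2 (0.37, without D/KO day 2 replicate 2 or 3 or D/KO day 2 plus VC replicate 2, at an adjusted p of up to 0.109), Phlda3 in D/KO cells at day 4 (-0.42, without D/KO day 4 replicate 1 or 2 or D/KO day 4 plus VC replicate 1 or 3, at an adjusted p of up to 0.231), Phlda3 in WT cells at day 0 (0.44, without WT day 0 replicate 1 or 3 or WT day 0 plus VC replicate 1 or 3, at an adjusted p of up to 0.171) and Ccng1 in WT cells at day 4 (-0.26, without WT day 4 replicate 1 or 2 or WT day 4 plus VC replicate 2, at an adjusted p of up to 0.127). Without the filter on low counts all 4 Zmat3 calls were lost, at adjusted p from 0.0865 to 0.247, and so was that of Ccng1 in WT cells at day 4 (0.139). With only the groups compared, the Zmat3 calls in D/KO cells at day 0 (0.115) and in WT cells at day 2 (0.184) and the Phlda3 call in D/KO cells at day 4 (0.0918) were lost. Bax was not called in any comparison of VC.

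**Figure D2:**
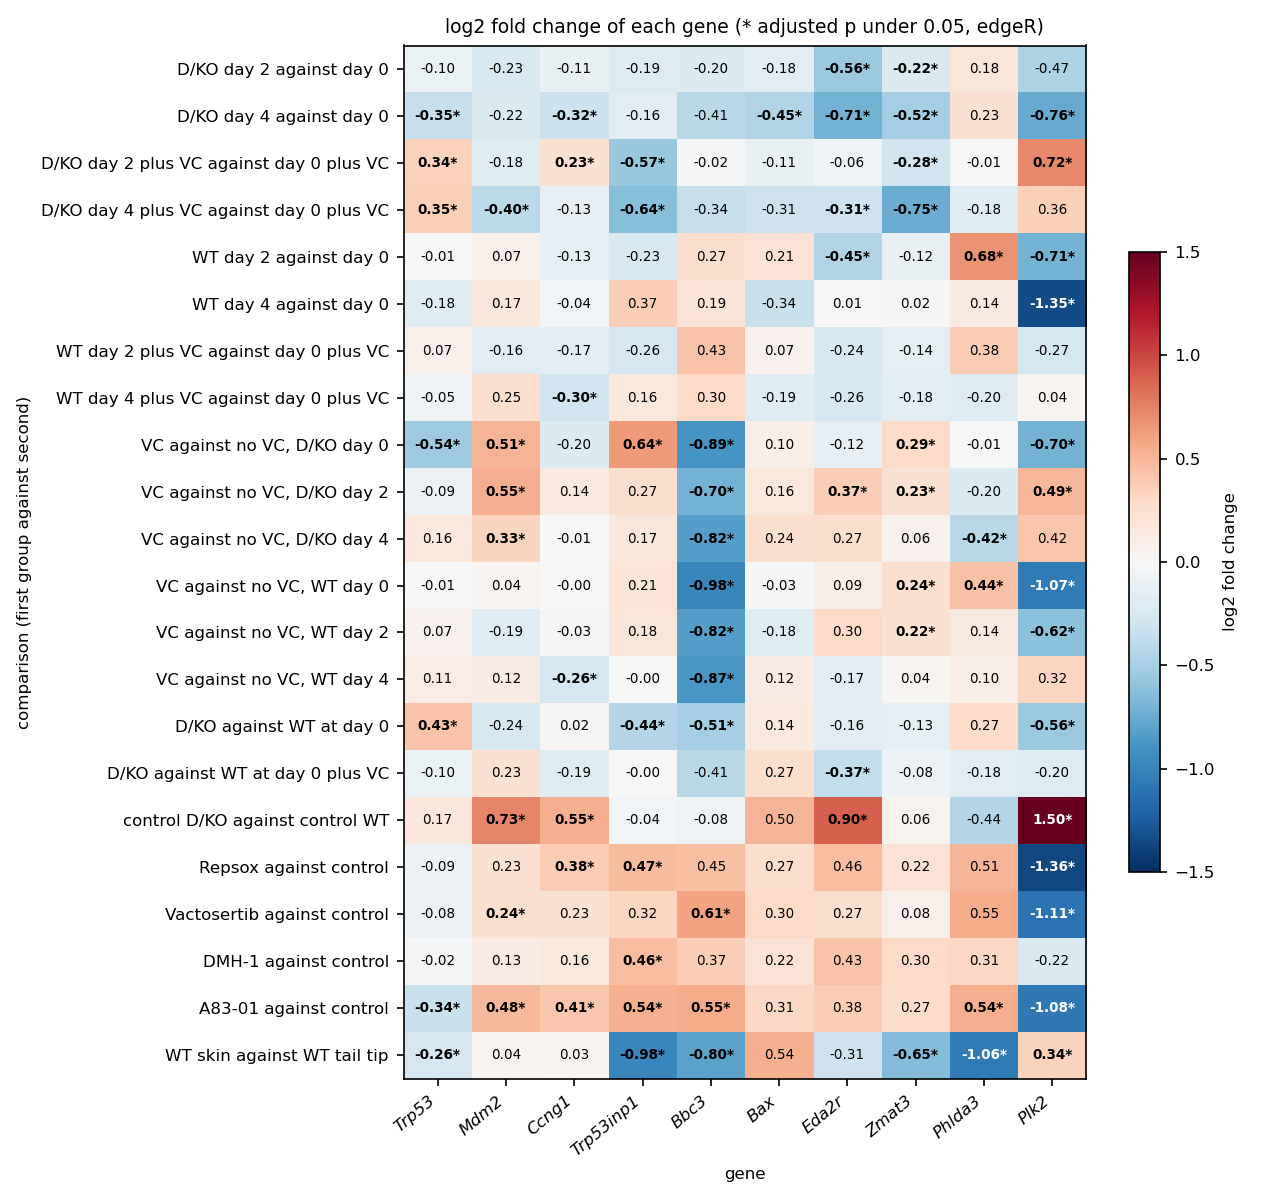
Heat map of log2 fold changes for the 10 genes (columns) in 22 comparisons of the tables (rows), with the value printed in each cell and an asterisk where the adjusted p is under 0.05. Red is higher and blue lower in the first-named group. Bbc3 is blue with an asterisk in all 6 comparisons of VC, and Plk2 holds both the deepest reds and the deepest blues.

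The genotypes could be compared in both tables. At day 0 of the reprogramming table, D/KO cells had more Trp53 RNA and less of 3 targets, Plk2, Bbc3 and Trp53inp1, than WT cells, 4 of 10 genes beside 43.2% of all genes. Trp53 was at 97.8, 118 and 133 CPM in D/KO and 92.4, 81.4 and 85.1 CPM in WT cells, fully separate (0.43 ± 0.12 SE, adjusted p = 0.00523). Plk2 was at 129, 116 and 60.1 and 144, 142 and 162 CPM, also separate (-0.56 ± 0.18 SE, adjusted p = 0.013). Bbc3, 31.1, 24.2 and 17.7 against 27.6, 42.9 and 33.1 CPM, overlapped (-0.51 ± 0.21 SE, adjusted p = 0.0495). Trp53inp1, 94.7, 104 and 72.1 against 106, 123 and 139 CPM, did not (-0.44 ± 0.17 SE, adjusted p = 0.0322). Mitochondrial counts were 0.257% to 0.722% in the D/KO and 0.888% to 1.05% in the WT libraries. Fibroblast markers summed to 85169 to 126353 CPM in D/KO and 55576 to 57609.7 CPM in WT cells. Keratinocyte markers summed to 6.69 to 7.61 and 25.3 to 34.97 CPM. Their part in the result was not tested.

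All 4 calls at day 0 depended on single libraries. Trp53 was lost without D/KO day 0 replicate 3, at an adjusted p of up to 0.0604, Plk2 without D/KO day 0 replicate 3 or WT day 0 replicate 3, at an adjusted p of up to 0.18, Bbc3 without D/KO day 0 replicate 2 or 3 or WT day 0 replicate 2 or 3, at an adjusted p of up to 0.294 and Trp53inp1 without D/KO day 0 replicate 3 or WT day 0 replicate 2 or 3, at an adjusted p of up to 0.205. Bbc3 was also lost with the size factors of DESeq2 (adjusted p = 0.0511) and Trp53inp1, at -0.28, with the transcript length index described further on as a covariate (0.0747). With 1 library left out, the number of called genes ran from 0 to 5, with 0 without D/KO day 0 replicate 3, 1 without WT day 0 replicate 3 and 2 without WT day 0 replicate 2. Mdm2 was not called, at 133, 105 and 94.8 CPM in D/KO and 132, 130.1 and 132 CPM in WT cells (-0.24, 95% interval -0.48 to -0.01, adjusted p = 0.0822), and Ccng1 at 516, 549 and 561 and 490.5, 550.2 and 567 CPM (0.02, interval -0.16 to 0.19). At day 0 plus VC, 1 of 10 genes was called beside 20.3% of all genes. It was Eda2r, at 46.4, 51.9 and 46.2 CPM in D/KO and 55.3, 65.1 and 66.1 CPM in WT cells (-0.37 ± 0.12 SE, adjusted p = 0.0251), lost without D/KO day 0 plus VC replicate 1 or 3 or WT day 0 plus VC replicate 2 or 3, at an adjusted p of up to 0.107, and with only the groups compared (0.072).

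In the inhibitor table control D/KO cells had more RNA of 4 targets than control WT cells, Mdm2, Ccng1, Eda2r and Plk2, and less of none, beside 34.6% of all 15652 tested genes called and 17.9% higher. Mdm2 was at 106, 101 and 92.96 CPM in D/KO and 59.04, 64.4 and 57.1 CPM in WT libraries (0.73 ± 0.08 SE, adjusted p = 4.31e-07). Ccng1 was at 521, 493 and 486 and 353, 356 and 319 CPM (0.55 ± 0.10 SE, adjusted p = 0.000301). Eda2r was at 40.8, 46.9 and 45.4 and 24.8, 28.7 and 17.7 CPM (0.90 ± 0.20 SE, adjusted p = 0.00115). In each the lowest D/KO library was above the highest WT library by a wide margin.

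Plk2 gave the largest genotype difference of the 10 genes, at 131, 144 and 152 CPM in control D/KO and 46.9, 53.02 and 50.9 CPM in control WT libraries (1.499 ± 0.12 SE, adjusted p = 4.90e-09). All 4 calls were kept with each library left out, and without control WT replicate 3, the WT library that stood apart, 4 genes were called as before. Trp53 (0.17, 95% interval -0.02 to 0.36), Zmat3 (0.06, -0.23 to 0.34) and Trp53inp1 (-0.04, -0.29 to 0.21) were not called. Bax, at 90.4, 79.3 and 74.8 CPM in D/KO and 58.4, 38.99 and 75.04 CPM in WT libraries, had a wide interval (0.50, -0.08 to 1.09), as did Phlda3 (-0.44, -0.84 to -0.03). Bbc3 was at -0.08 (-0.46 to 0.30).

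Side by side, the genotype log2 difference of Plk2 was -0.56 at day 0 and 1.499 in the inhibitor table, that of Mdm2 -0.24 and 0.73, that of Eda2r -0.16 and 0.90, and that of Trp53 0.43 and 0.17. The tables were counted from different mice, ages and lines, and the difference between these values was not tested. Of 13 tested proliferation genes, 12 were called higher in D/KO cells at day 0, where 43.2% of all genes were called. In the inhibitor table it was 10 of 13, where 34.6% of all genes were called and 17.9% higher.

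**Figure D3:**
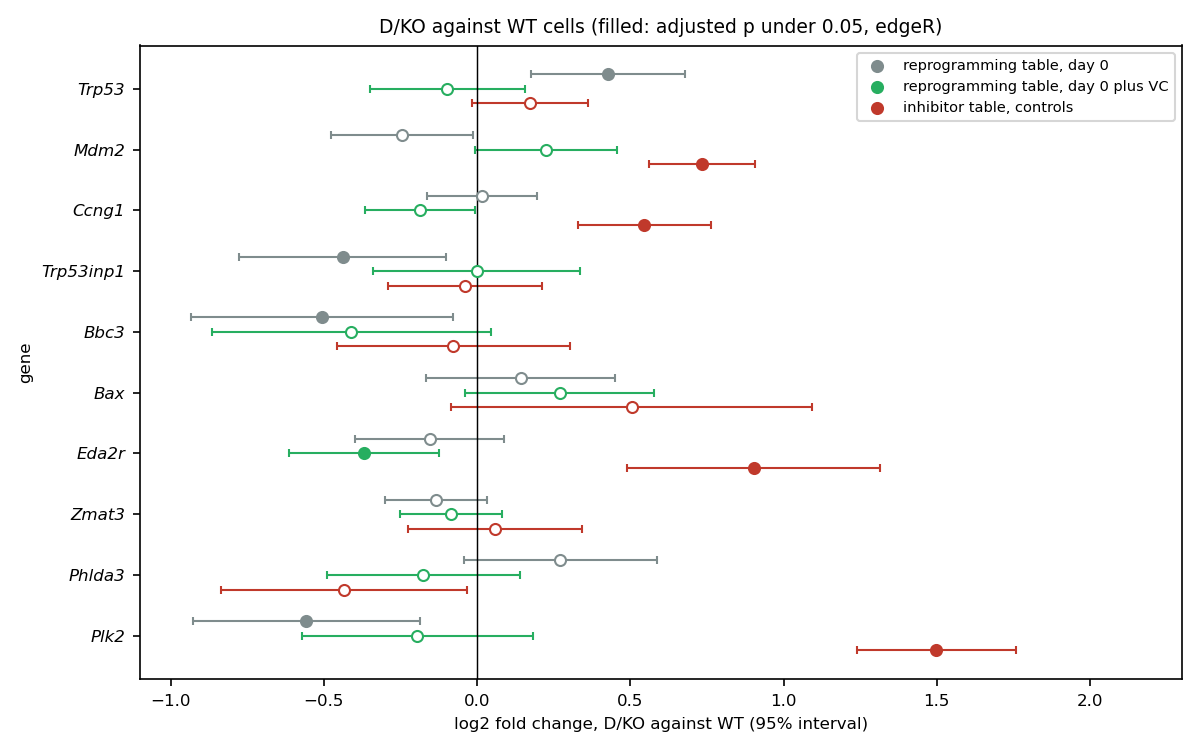
Log2 fold change of D/KO over WT cells for the 10 genes in 3 comparisons (day 0, day 0 plus VC and the controls of the inhibitor table). Points are estimates, bars 95% intervals, and filled points have an adjusted p under 0.05. Plk2, Eda2r, Mdm2 and Ccng1 lie right of 0 in the inhibitor table, with Plk2 on the other side at day 0.

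Plk2 was lower in D/KO cells with 3 of the 4 inhibitors, and every other target that was called was higher than in control D/KO cells. The 4 comparisons share the control libraries. Plk2 was at 131, 144 and 152 CPM in control, 61.7, 47.8 and 56.01 CPM in Repsox and 64.8, 67.5 and 65.4 CPM in Vactosertib libraries. It was at 63.1, 74.3 and 64.6 CPM with A83-01 and 114, 118 and 135 CPM with DMH-1. The Repsox, Vactosertib and A83-01 libraries all lay below the control range, and one of DMH-1 lay inside it. Log2 fold changes of Plk2 were -1.36 ± 0.12 SE, adjusted p = 6.31e-08 (Repsox), -1.11 ± 0.12 SE, adjusted p = 1.27e-06 (Vactosertib), -1.08 ± 0.12 SE, adjusted p = 8.04e-07 (A83-01), and -0.22 ± 0.12 SE, adjusted p = 0.363 (DMH-1, not called). These calls were kept with each library left out. For reference, control WT cells had 46.9, 53.02 and 50.9 CPM. The share of mitochondrial counts was 0.511% to 0.909% in control D/KO cells, 1.13% to 1.45% with Repsox, 1.11% to 1.21% with Vactosertib and 1.10% to 1.29% with A83-01, these 3 above the control range, and 0.392% to 0.768% with DMH-1. Its part in the results was not tested.

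**Figure D4:**
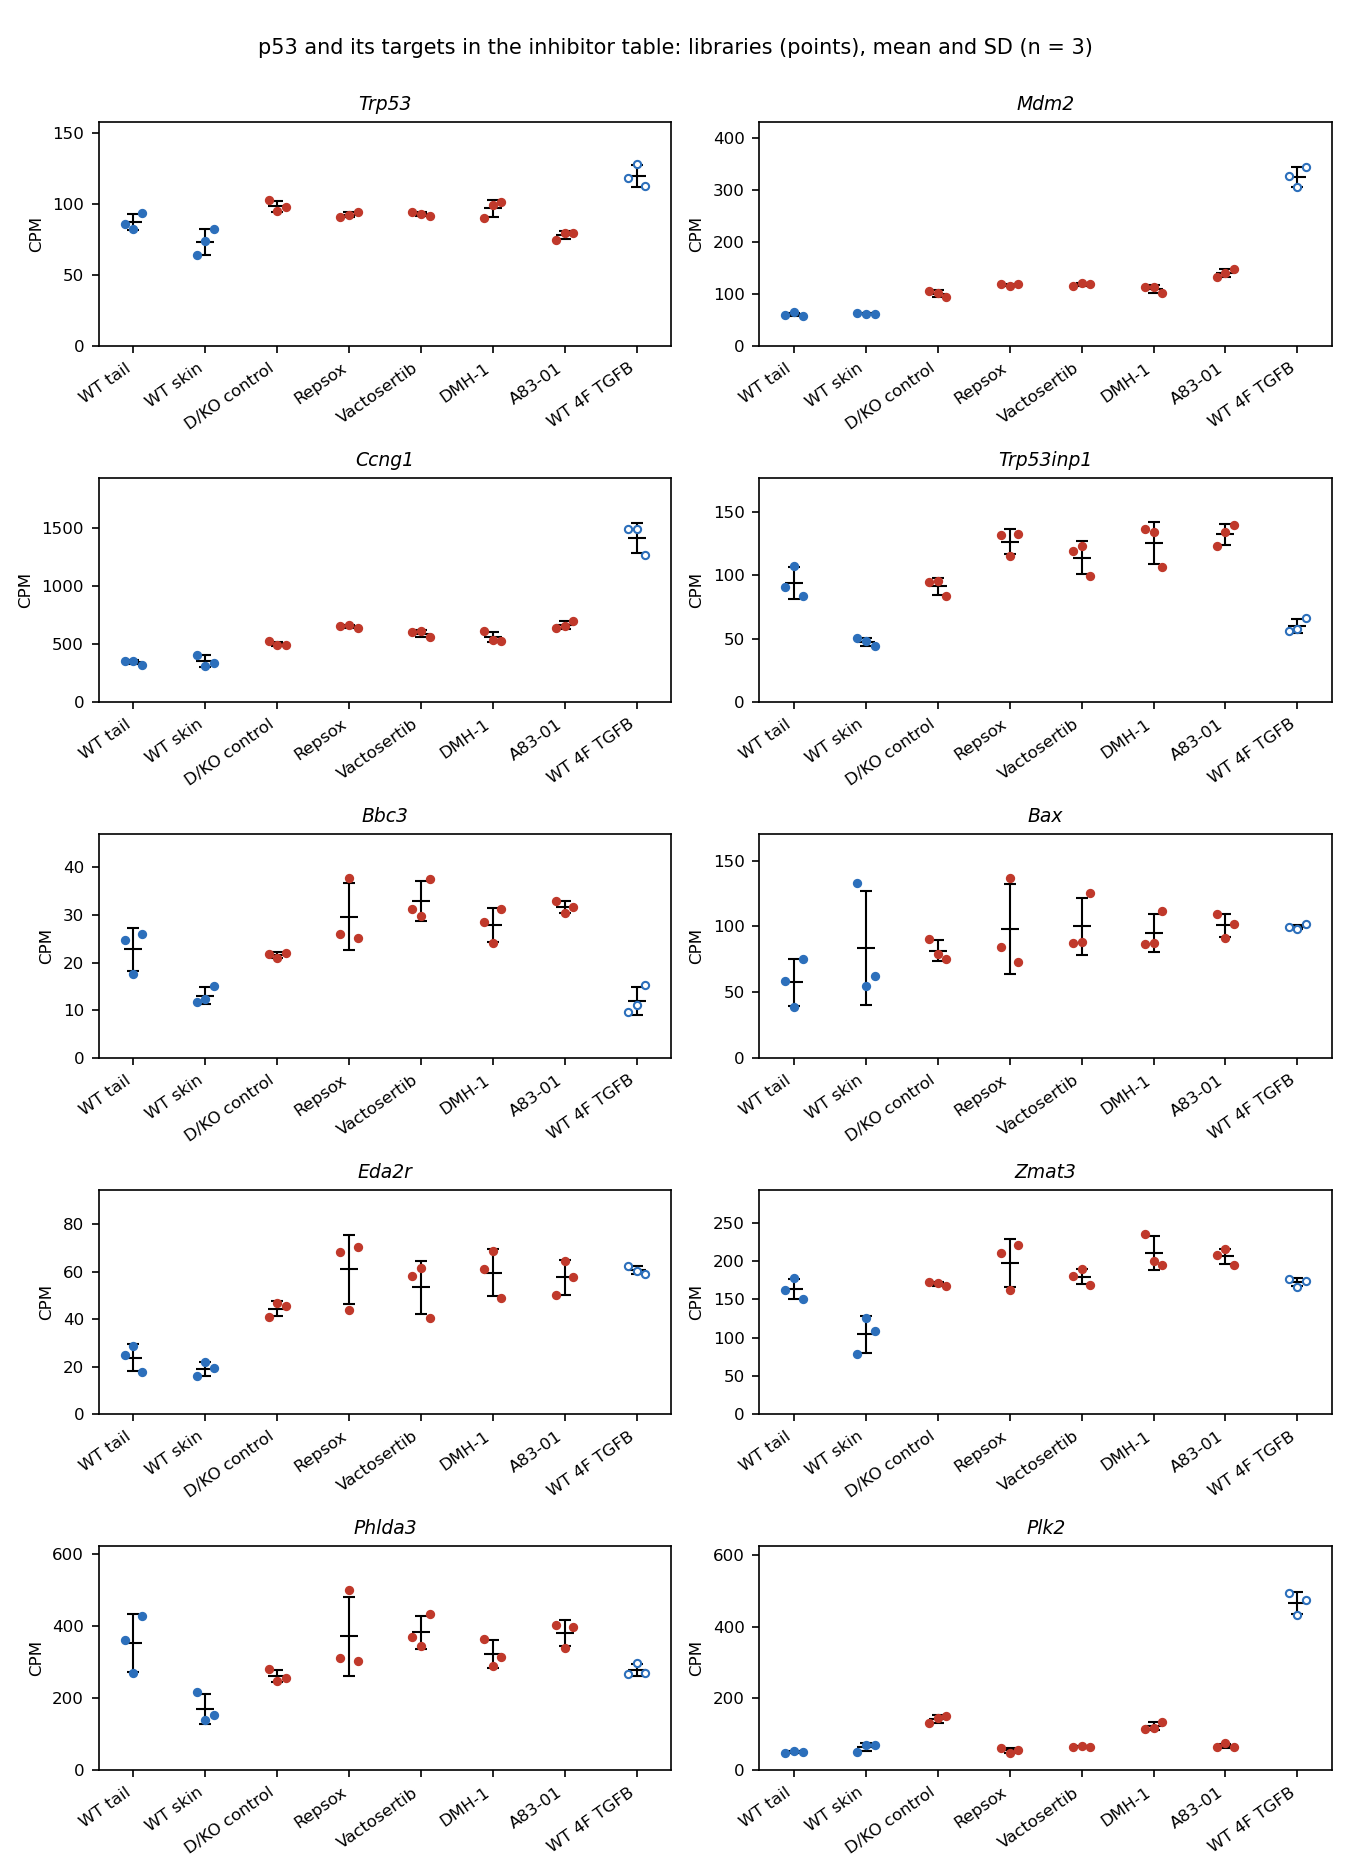
Level (CPM) of each of the 10 genes in the 8 groups of the inhibitor table, 1 panel a gene, with points for libraries, bars for means and error bars for SD (n = 3). Plk2 is high in control and DMH-1 treated D/KO cells and low with Repsox, Vactosertib and A83-01, and Mdm2, Ccng1 and Plk2 are highest in the WT 4F group labelled TGFB, which has no control of its own.

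A83-01 moved the most of the 10 genes, 7 beside 27.5% of all genes, with 5 higher (13.6% of all genes) and 2 lower (13.9%). Mdm2 was at 132, 139 and 148 CPM with A83-01 and 106, 101 and 92.96 CPM in control cells (0.48 ± 0.08 SE, adjusted p = 0.00012). Ccng1 was at 634, 653 and 699 and 521, 493 and 486 CPM (0.41 ± 0.10 SE, adjusted p = 0.0054), and Trp53inp1 at 123, 134 and 139.8 and 94.7, 95.6 and 83.6 CPM (0.54 ± 0.12 SE, adjusted p = 0.00177). No library of either treatment overlapped in these genes. Bbc3, 33.01, 30.5 and 31.7 against 21.8, 20.98 and 22.1 CPM, rose by 0.55 ± 0.18 SE, adjusted p = 0.0268, and Phlda3, 403, 339 and 397 against 280.4, 246 and 255 CPM, by 0.54 ± 0.19 SE, adjusted p = 0.0409. The Bbc3 call was lost without control D/KO replicate 1, 2 or 3 or A83-01 replicate 1 or 3, at an adjusted p of up to 0.0846, and that of Phlda3 without control D/KO replicate 1, 2 or 3 or A83-01 replicate 1 or 3, at an adjusted p of up to 0.123. Trp53 RNA was lower, at 74.6, 79.4 and 79.4 against 103, 94.9 and 97.3 CPM (-0.34 ± 0.09 SE, adjusted p = 0.00766), a call lost without the filter on low counts (adjusted p = 0.14). Endothelial markers summed to 120 to 165 CPM with A83-01 and 324 to 365 CPM in control cells, and proliferation genes were called lower in 11 of 13 cases. Fibroblast markers summed to 43168 to 45747 and 85810.5 to 92476 CPM (5 of 10 lower), and 5 of 5 Schwann cell markers were called higher (41.95 to 50.2 and 11.7 to 14.3 CPM). Their part in the result was not tested.

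Repsox moved 3 of the 10 genes beside 20.7% of all genes. An unadjusted p under 0.05 was reached by 7 of 10, but the share of all genes at that p was not computed. Ccng1 was at 651, 659.9 and 638 CPM (0.38 ± 0.10 SE, adjusted p = 0.0121) and Trp53inp1 at 132, 115 and 133 CPM (0.47 ± 0.12 SE, adjusted p = 0.00746), both above all control libraries, and Plk2 was lower as above. The Ccng1 call was lost without control D/KO replicate 3, at an adjusted p of up to 0.0507, and with only the groups compared (0.0536). Without Repsox replicate 2, which stood apart, 4 of the 10 genes were called. Mdm2 with Repsox was at 119, 115 and 118 CPM, all above the control libraries, but its change of 0.23 was not called (adjusted p = 0.0529). With Repsox, 5 of 5 Schwann cell markers (26.2 to 28.7 CPM in sum, 11.7 to 14.3 CPM in control cells) and 3 of 6 leukocyte markers (16.2 to 28.8 and 10.2 to 14.3 CPM) were called higher, and 5 of 10 fibroblast markers lower (41335 to 49407 and 85810.5 to 92476 CPM). Their part in the result was not tested.

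Vactosertib moved 3 of 10 genes beside 18.1% of all genes. Mdm2 was at 114, 121 and 119.7 CPM (0.24 ± 0.08 SE, adjusted p = 0.0484), and Bbc3 at 31.4, 29.8 and 37.7 CPM against 21.8, 20.98 and 22.1 CPM in control cells (0.61 ± 0.18 SE, adjusted p = 0.0235). Both were separate from the control libraries. The Mdm2 call was lost without control D/KO replicate 1, 2 or 3 or Vactosertib replicate 1, 2 or 3, at an adjusted p of up to 0.218, that is, without any of the 6, and the Bbc3 call without control D/KO replicate 1, 2 or 3 or Vactosertib replicate 3, at an adjusted p of up to 0.112. With 1 library left out, 1 or 2 genes were called. The Mdm2 call was also lost without the filter on low counts (adjusted p = 0.314) and with only the groups compared (0.0501). With Vactosertib, 4 of 5 Schwann cell markers (20.6 to 27.7 CPM in sum) and 3 of 6 leukocyte markers (14.2 to 29.1 CPM) were called higher, and 5 of 10 fibroblast markers (50402 to 54046 CPM) and 10 of 13 proliferation genes lower. Their part in the result was not tested.

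DMH-1 moved 1 of 10 genes beside 7.25% of all genes, Trp53inp1, at 136, 135 and 107 CPM (0.46 ± 0.12 SE, adjusted p = 0.0206). That call was lost without control D/KO replicate 1, 2 or 3 or DMH-1 replicate 1 or 2, at an adjusted p of up to 0.109, which left no gene called, and without the filter on low counts (0.0582). With DMH-1, Schwann cell markers summed to 19.1 to 21.8 CPM beside 11.7 to 14.3 CPM in control cells (1 of 5 called higher) and muscle markers to 13.6 to 20.03 CPM beside 28.6 to 34.9 CPM (2 of 4 tested called lower), neither overlapping, and 4 of 13 proliferation genes were called lower. Their part in the result was not tested. Over the 4 inhibitors the median log2 fold change of the 10 genes was 0.32 (Repsox), 0.25 (Vactosertib), 0.26 (DMH-1) and 0.39 (A83-01), beside 0.0176, 0.0017, -0.00173 and 0.000333 over all tested genes. Trp53inp1 was called with 3 of the 4 inhibitors, at 0.47, 0.32 (Vactosertib, not called, adjusted p = 0.0735), 0.46 and 0.54. In the fit reported here Eda2r, Zmat3 and Bax were not called with any inhibitor. The intervals of Bax reached from -0.32 to 0.85 with Repsox to -0.28 to 0.89 with A83-01. With A83-01, 10 of the 10 genes were called in a fit of only the groups compared, beside 41.6% of all genes. The same count was reached with the length index described further on as a covariate, beside 46.5%.

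Compounds given at one dose were compared directly, over 20 tests (10 genes, 2 pairs). Repsox, an ALK5 inhibitor, and Vactosertib, described as acting on both ALK5 and ALK2, differed in none of the 10 genes by edgeR or DESeq2, with 0% of all genes called and 1 of the 10 at an unadjusted p under 0.05. The nearest was Plk2, a difference of -0.26 with a 95% interval of -0.51 to -0.0018 (adjusted p = 0.194 over the 20 tests). Intervals for Mdm2 (-0.18 to 0.16) and Trp53 (-0.20 to 0.18) were narrow, while that for Bax ran from -0.62 to 0.55, so a difference of that size could not be seen.

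A83-01 and DMH-1, which inhibit ALK5 and ALK2 respectively, differed in 3 of the 10 genes, where 20.5% of all genes were called. Plk2 was lower with A83-01, at 63.1, 74.3 and 64.6 CPM against 114, 118 and 135 CPM without overlap (-0.86 ± 0.12 SE, adjusted p = 2.03e-05, and 1.43e-05 over the 20 tests). Mdm2 was higher with A83-01, at 132, 139 and 148 CPM against 114, 113 and 101 CPM (0.35 ± 0.08 SE, adjusted p = 0.00326, and 0.0032 over the 20 tests). Trp53 was lower with A83-01, at 74.6, 79.4 and 79.4 CPM against 90.01, 98.8 and 101 CPM (-0.31 ± 0.09 SE, adjusted p = 0.0169, and 0.017 over the 20 tests), a call lost without DMH-1 replicate 2 or 3 or A83-01 replicate 1, at an adjusted p of up to 0.079. Without the filter on low counts the Mdm2 (adjusted p = 0.0673) and Trp53 (0.192) calls were lost and that of Plk2 was kept. Between these compounds, 10 of 13 proliferation genes, 6 of 10 fibroblast and 4 of 5 endothelial markers were lower with A83-01, and their part was not tested. Ccng1 had an unadjusted p of 0.0277 and missed the adjusted threshold at 0.138. Of the other genes, Trp53inp1 had an interval of -0.18 to 0.32 and Eda2r of -0.46 to 0.35.

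WT skin cells differed from WT tail tip cells of the same genotype in 6 of the 10 genes, 5 lower and 1 higher, beside 34.2% of all genes called and 16.1% lower. Trp53inp1 was at 50.5, 48.1 and 44.3 CPM in skin and 90.8, 108 and 83.3 CPM in tail tip libraries (-0.98 ± 0.12 SE, adjusted p = 2.08e-06). Phlda3 was at 217, 138 and 152 and 362, 268 and 427 CPM (-1.06 ± 0.19 SE, adjusted p = 0.000204), and Bbc3 at 11.8, 12.4 and 15.1 and 24.7, 17.7 and 26.03 CPM (-0.80 ± 0.18 SE, adjusted p = 0.00175). In these 3 genes the groups did not overlap. Zmat3 was lower too, without overlap, at 78.8, 126 and 108 against 163, 178 and 151 CPM (-0.65 ± 0.14 SE, adjusted p = 0.000796). The calls of Trp53 (-0.26, lost without control WT replicate 1 or 3 or WT skin replicate 1 or 2, at an adjusted p of up to 0.137) and Plk2 (0.34, lost without control WT replicate 1 or 3 or WT skin replicate 2 or 3, at an adjusted p of up to 0.169) were also lost without the filter on low counts (0.213 and 0.138). With only the groups compared, Zmat3 (-0.64, adjusted p = 0.0816), Trp53 (0.369) and Plk2 (0.253) were lost. That left 3 of the 10 genes called, beside 18.4% of all genes in that fit. Trp53 was also lost with the size factors of DESeq2 (0.0568). WT skin replicate 1 and control WT replicate 3 stood apart in transcript length, and 5 of the 10 genes were called without the first and 4 without the second. Without control WT replicate 1, 4 were called too. Muscle markers summed to 122 to 152 CPM in skin and 16.1 to 21.3 CPM in tail tip libraries (4 of 4 tested called higher), endothelial markers to 186 to 270 and 44.7 to 58.1 CPM (5 of 5 higher), leukocyte markers to 15.1 to 17.7 and 7.94 to 9.47 CPM (1 of 6 higher and 1 lower) and keratinocyte markers to 5.70 to 7.87 and 17.7 to 20.2 CPM (2 of 4 tested lower). Mitochondrial counts were 0.579% to 0.720% in skin and 0.810% to 0.923% in tail tip libraries, and all 13 proliferation genes were called higher in skin. Their part in the result was not tested. Mdm2, 63.3, 61.6 and 60.96 CPM in skin, was not called (log2 difference 0.04, 95% interval -0.13 to 0.21).

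The WT 4F libraries labelled TGFB had the highest levels of 4 of the 10 genes in the inhibitor table. Mdm2 was at 326, 305 and 344 CPM, Ccng1 at 1494, 1488 and 1266 CPM and Plk2 at 493, 433 and 473 CPM, each above every other library of the table, and Trp53 was at 118, 128 and 113 CPM. Bbc3, at 9.57, 11.1 and 15.3 CPM, and Trp53inp1, at 55.7, 57.6 and 65.9 CPM, were by contrast at the low end. The same line at day 0 of the reprogramming table, normalized separately, had 132, 130.1 and 132 CPM of Mdm2, 490.5, 550.2 and 567 CPM of Ccng1 and 144, 142 and 162 CPM of Plk2. These libraries also had the highest sums of keratinocyte (352 to 383 CPM) and muscle markers (1711 to 2063 CPM) of the table, and line, treatment and preparation cannot be told apart.

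For order among groups, the neighbours in level were seldom separate. In the reprogramming table the Trp53, Mdm2, Trp53inp1, Bbc3, Bax and Eda2r libraries of each group overlapped with those of the next group in order throughout. Plk2 was highest in WT day 0, clear of the next group, and Zmat3 was lowest in the 3 groups D/KO day 2, D/KO day 4 plus VC and D/KO day 4, with D/KO day 2 clear of its neighbours on both sides. In the inhibitor table Mdm2 ran from the group labelled TGFB through A83-01, then Vactosertib and Repsox, DMH-1 and control D/KO to the WT skin and tail tip groups, with gaps between libraries after the first, the second, Repsox and control D/KO.

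Of the wider pathway, 24 other p53 targets were tested. In D/KO cells without VC, 7 were called higher and 4 lower at day 2, beside 27.4% of all genes called, and 9 and 4 at day 4, beside 37%, in the same comparisons in which the called ones of the 10 genes above were lower. At day 4 plus VC it was 9 higher and 9 lower, beside 54.1%. The median log2 fold changes of the 24 genes were 0.0988, 0.0997 and 0.0136. Those with the largest called changes at day 4 plus VC were Perp, a desmosomal protein needed in epithelia, from 0.324, 0.603 and 0.140 CPM to 118, 149.8 and 123 CPM (8.51 ± 0.36 SE, adjusted p = 9.11e-21), Tigar, a phosphatase that lowers glycolysis (2.31 ± 0.19 SE, adjusted p = 9.35e-13), and Gdf15, a secreted stress cytokine (1.35 ± 0.32 SE, adjusted p = 0.000552). In WT cells, 3 rose and none fell at day 2 (10.6% of all genes called), 5 rose and 5 fell at day 4 (24.5%), and 9 rose and 6 fell at day 4 plus VC (44.7%).

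Between genotypes at day 0, 4 of the 24 were higher and 8 lower in D/KO cells (median -0.0975), beside 43.2% of all genes called, and the largest called values were those of Perp (2.56 ± 0.74 SE, adjusted p = 0.00544), Ddb2, the damage recognition protein of nucleotide excision repair (-1.86 ± 0.36 SE, adjusted p = 7.20e-05), and Pmaip1 (Noxa), a BH3-only protein (-1.23 ± 0.21 SE, adjusted p = 1.27e-05). In the control cells of the inhibitor libraries, 9 were higher and 4 lower in D/KO (median 0.0493), beside 34.6% of all genes, with Perp (-2.45 ± 0.51 SE, adjusted p = 0.000644), Sesn1, a stress regulator of mTORC1 (-1.82 ± 0.14 SE, adjusted p = 1.07e-09), and Pidd1, a death domain protein (1.301 ± 0.31 SE, adjusted p = 0.00265), furthest. Perp was at 0.516, 0.997 and 0.471 CPM in D/KO and 0.166, 0.161 and 0 CPM in WT cells at day 0, and at 0.298, 0.293 and 0.295 and 1.49, 1.01 and 2.43 CPM in the controls, so its difference went opposite ways, each time against a group at under 0.3 CPM. With A83-01, 11 of the 24 were higher and 3 lower (median 0.35), beside 27.5% of all genes, led by Gdf15 (1.64 ± 0.24 SE, adjusted p = 2.26e-05), Perp (1.52 ± 0.52 SE, adjusted p = 0.0348) and Btg2, an antiproliferative gene (1.43 ± 0.15 SE, adjusted p = 3.15e-07). Repsox gave 8 higher and 2 lower (20.7% of all genes), Vactosertib 7 and 1 (18.1%), and DMH-1 2 and 0 (7.25%).

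Cdkn1a (p21), the kinase inhibitor through which p53 halts the cell cycle, was higher with VC in 5 of the 6 comparisons, at 0.62 (D/KO day 0), 0.56 (D/KO day 2), 0.75 (WT day 0), 0.73 (WT day 2) and 0.40 (WT day 4), with 0.24 at D/KO day 4 (not called). In the same comparisons Bbc3 was lower. Cdkn1a was at 517, 507 and 509.8 CPM in control D/KO and 359.99, 334 and 367 CPM in control WT libraries (0.53 ± 0.11 SE, adjusted p = 0.000541), and rose with Repsox (0.32), Vactosertib (0.38) and A83-01 (0.43). During reprogramming it was called only in WT cells at day 4 (0.29). At day 0 it was higher in D/KO than in WT cells (0.40).

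Among 13 tested regulators of p53, Mdm4, the partner of Mdm2 that masks the activation domain of p53, fell in D/KO cells in all 4 reprogramming comparisons (-0.86 and -0.85 without, -1.34 and -0.96 with VC). In WT cells with VC it fell at day 2 (-0.75) and rose at day 4 (0.94), and the difference between the lines at day 4 plus VC was -1.89 ± 0.34 SE, adjusted p = 5.96e-05. At day 0 Mdm4 was at 41.3, 40.6 and 28.2 CPM in D/KO and 82.7, 68.8 and 84.2 CPM in WT cells (-1.098 ± 0.24 SE, adjusted p = 0.000361). Trp63, the p53 relative of basal epithelial cells, was at 0.170, 0.293 and 0.590 CPM in control D/KO and 11.6, 13.4 and 10.7 CPM in control WT cells (-5.13 ± 0.52 SE, adjusted p = 1.03e-07), while the keratinocyte list that also holds it summed to 6.59 to 8.56 CPM and 17.7 to 20.2 CPM. Over the list of regulators, 5 rose and 3 fell in D/KO cells at each of day 2 and day 4 plus VC (medians 0.13 and 0.18), where 47.4% and 54.1% of all genes were called, and with A83-01 2 rose and 1 fell (median 0.25), where 27.5% were.

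The 15 damage checkpoint genes, which hold Atm, Atr, Chek1, Chek2 and their partners, were called higher 11 times and lower 0 times in D/KO cells at day 4 plus VC (median 0.50), where 54.1% of all genes were called. They were higher in 1 case and lower in 2 at day 4 without VC, where 37% were, and lower 3 times with A83-01 (median -0.30), where 27.5% were. The 12 tested genes of the Bcl-2 family other than Bax and Bbc3 gave 4 higher and 3 lower at D/KO day 4 plus VC, and 3 higher and 1 lower with A83-01, both near the share of all genes in those comparisons. Of the 13 proliferation genes, 13 were higher at D/KO day 4 plus VC (median 1.33) and 10 lower at WT day 4 plus VC (median -0.99), where 44.7% of all genes were called. With Repsox 5, with Vactosertib 10, with DMH-1 4 and with A83-01 11 of the 13 were lower, and none higher, beside 20.7%, 18.1%, 7.25% and 27.5% of all genes called.

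How the 10 genes varied together was described over libraries, which share groups and normalization, so the correlations carry no test. In the inhibitor table Mdm2 and Ccng1 followed each other closely (Pearson r = 0.985 of log2 CPM over 24 libraries), but with group means removed the r of this pair was 0.266. Both genes were far higher in the WT 4F libraries labelled TGFB than in the other groups. Over the 24 libraries, 38 of the 45 pairs of genes had a positive r (median 0.40). In the reprogramming table the same pair had r = 0.0613 over 36 libraries, 31 of 45 pairs were positive (median 0.12), and the highest were Eda2r with Zmat3 (0.815, and 0.406 with group means removed) and Mdm2 with Trp53inp1 (0.802 and 0.614). Trp53 had a negative r with 5 of the 9 targets there, Trp53inp1 (-0.794), Mdm2 (-0.634), Zmat3 (-0.446), Eda2r (-0.397) and Bbc3 (-0.224). With group means removed these were -0.754, -0.511, -0.251, -0.371 and 0.162. Within groups, Trp53 and Trp53inp1 also went opposite ways along the transcript length index described further on (r = -0.582 and 0.679). With group means removed, 24 of 45 pairs were positive in the reprogramming and 19 of 45 in the inhibitor table.

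Over the 36 reprogramming libraries the genes outside the 10 whose log2 CPM was most like that of Mdm2 were Polk (r = 0.848), a translesion polymerase, Snora31 (0.846) and Pidd1 (0.832). Those most like Ccng1 were Hs6st2 (0.642), Cln8 (0.636) and Prkca (0.630), and those most like Trp53 were Slc25a39 (0.858), Usp39 (0.813) and G6pc3 (0.804). Polk and Pidd1 stand in the list of other p53 targets. Mdm2 had no member of the 10 as close as these 3, the nearest being Trp53inp1, and Trp53 had none above 0.249 (Bax).

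Part of the spread within groups moved with transcript length, apart from the shifts of the WT day 4 groups given above. A length index was taken for each library from tested genes with a mean log2 CPM above 3, by length of the gene model. It is the median deviation in log2 CPM of genes of at least 5000 bases minus that of genes shorter than 2000 bases. These were 4446 and 941 genes in the reprogramming and 4303 and 967 genes in the inhibitor table. The index was -1.18 in WT skin replicate 1, -0.744 in Repsox replicate 2 and -0.609 in control WT replicate 3. After removal of group means, the short genes Bax and Phlda3 went against the index in the inhibitor table (r = -0.969 and -0.924 over 24 libraries), while Zmat3, Eda2r and Plk2 went with it (0.894, 0.849 and 0.765). In the reprogramming table Phlda3 (-0.805), Bax (-0.738), Bbc3 (-0.601) and Trp53 (-0.582) went against the index and Trp53inp1 (0.679) and Eda2r (0.595) with it, while Plk2, Mdm2, Zmat3 and Ccng1 were at 0.252, 0.234, 0.198 and 0.0836. Bax in these libraries was at 133 CPM in WT skin replicate 1 beside 54.6 and 62.6 CPM in the other WT skin libraries, and at 137 CPM in Repsox replicate 2 beside 84.4 and 72.7 CPM. A fit with the index as a covariate, chosen after seeing the data, called 8 of the 10 genes with Repsox in place of 3, 7 with Vactosertib in place of 3 and 4 with DMH-1 in place of 1. The share of all genes called rose in the same fit, to 38.9% (Repsox), 36.7% (Vactosertib) and 23.4% (DMH-1). With A83-01 the same fit called 10 of the 10 genes in place of 7, beside 46.5% of all genes. It kept 84 of the 85 calls made over all comparisons.

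**Figure D5:**
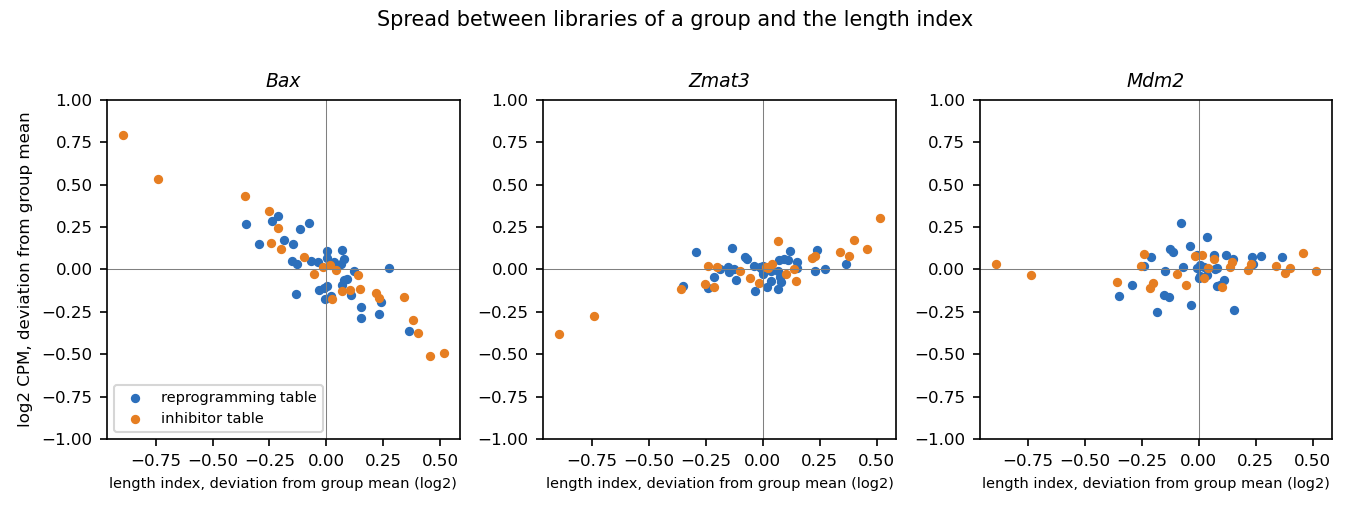
Deviation of each library from its group mean in log2 CPM of Bax, Zmat3 and Mdm2 (vertical axes) against its deviation in length index (horizontal axes), in blue for the 36 reprogramming and orange for the 24 inhibitor libraries. Bax goes down and Zmat3 up along the index, with the widest deviations in the inhibitor table.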

How the data were processed

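RNA was sequenced from 60 libraries of mouse fibroblasts in 20 groups of 3, grouped by the sample labels. The authors deposited 2 tables of raw counts for each gene, made with FastQC, Trim Galore, HISAT2 (build GRCm39) and featureCounts of the Subread package, in that order. Tool versions, the annotation release, strandedness and the treatment of multimapping reads are not given in the sources used here. Symbols were taken from GENCODE M39, in which 56236 of the 56980 identifiers (98.7%) were found. No 2 libraries held identical values.

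Counts were normalized by TMM and tested in R 4.3.3 with edgeR 4.0.16 (limma 3.58.1), by the two-sided quasi-likelihood F-test with 1 fit per table and a coefficient per group. filterByExpr (minimum count 10, minimum total 15) kept 15832 genes of the reprogramming and 15652 of the inhibitor table. p-values were adjusted by Benjamini-Hochberg over all tested genes of a comparison and called under 0.05. Log2 CPM for correlations used a prior count of 2. The steps were tested on simulated counts. Library totals of 16538374 to 30599138 put at least 151 counts behind each value of the 10 genes. How much of the spread between libraries was counting error was not tested.

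The 10 genes and the lists were chosen with earlier results of these data known. Beside the 10 genes, the text names Cdkn1a, Mdm4, Trp63, the 3 called p53 targets with the largest change in each of 4 comparisons (D/KO day 4 plus VC, both genotype comparisons without VC and A83-01), and the 3 genes most like each of Mdm2, Ccng1 and Trp53 by Pearson correlation. Alternatives were DESeq2 1.42.0, its size factors, no filter, only the groups compared, only 18 inhibitor libraries, day 0 without VC as the baseline, each library left out, and, added after seeing the data, the length index as a covariate. Sequences were read from GRCm39 with Python 3.11.15.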

Additional observations from a re-analysis of the deposited data

Results flagged for a closer look

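In 7 cases the change during reprogramming differed between D/KO and WT cells by the test of the difference itself (edgeR's quasi-likelihood test, adjusted over all genes, 3 libraries a group), and these are listed for that reason. The counts were 0 of 10 genes at day 2 (6.54% of all genes called), 2 of 10 at day 4 (14.3%), 2 of 10 at day 2 plus VC (13.9%) and 3 of 10 at day 4 plus VC (29.4%), near the share of all genes, so they show nothing particular to the 10 genes. At day 4 without VC the difference was -0.71 ± 0.17 SE, adjusted p = 0.00312 for Eda2r, from a D/KO change of -0.71 and a WT change of 0.01. For Zmat3 it was -0.54 ± 0.12 SE, adjusted p = 0.00112, from -0.52 and 0.02. At day 2 plus VC the difference was 0.99 ± 0.26 SE, adjusted p = 0.00814 for Plk2, from 0.72 and -0.27. It was 0.40 ± 0.12 SE, adjusted p = 0.0256 for Ccng1 there, from 0.23 and -0.17.

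At day 4 plus VC it was -0.65 ± 0.16 SE, adjusted p = 0.00227 for Mdm2 (-0.40 and 0.25), -0.80 ± 0.24 SE, adjusted p = 0.00931 for Trp53inp1 (-0.64 and 0.16), and -0.57 ± 0.12 SE, adjusted p = 0.000261 for Zmat3 (-0.75 and -0.18). Zmat3 is the one gene of the 10 that differed at day 4 both without and with VC. The lines also differed in sex, age and origin, which cannot be told apart from the genotype. The Ccng1 call was lost without D/KO day 0 plus VC replicate 1, D/KO day 2 plus VC replicate 2, WT day 0 plus VC replicate 2 or 3 or WT day 2 plus VC replicate 1 or 2, at an adjusted p of up to 0.103, while the other 6 were kept with any single library left out. With day 0 without VC as the baseline, 3 of the 5 differences with VC were lost, those of Mdm2 (-0.18), Trp53inp1 (-0.36) and Ccng1 (0.20), and those of Plk2 (1.35) and Zmat3 (-0.52) were kept.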

How the results depend on the processing

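Of the 85 calls made for the 10 genes over 28 comparisons, 37 kept their direction and significance under every alternative run for them, 47 with every library left out in turn, and 38 were lost without at least 1 library. Over all libraries left out, 425 of 552 values kept the call and 0 reversed. DESeq2 kept 85 of 85 calls, its size factors 83, no filter 68, the length index covariate (chosen after seeing the data) 84, only the groups compared 67 of 85, and the 18 inhibitor libraries 21 of 21. With day 0 without VC as the baseline 5 of 16 calls were kept and the rest were lost. Of the lost ones, 6 estimates changed sign without passing the threshold. In D/KO cells at day 2 plus VC these were Zmat3 (0.0089), Trp53inp1 (0.0774) and Trp53 (-0.19). At day 4 plus VC they were Trp53inp1 (0.0069), Mdm2 (0.11) and Trp53 (-0.18). VC changed these genes at day 0, which is what that baseline leaves in. No paired analysis was possible because the replicate numbers in the labels run on through each table, and no 2 groups share a number.

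The number of the 10 genes called moved by over 1.5 times as follows, and the cause was not tested. After each list stands the share of all genes called in its fits. The shares in the fit reported here are given above with each comparison. DESeq2 gave 2 in place of 1 at WT day 4 plus VC, and 5 in place of 3 with Repsox and with Vactosertib. The shares of all genes called in these fits were, in the same order, 46%, 23.6% and 21.1%. No filter gave 3 in place of 5 (D/KO day 2 plus VC), 3 in place of 1 (WT day 4), 2 in place of 0 (WT day 2 plus VC), 4 in place of 2 (difference at day 4), 1 in place of 2 (difference at day 2 plus VC and VC in WT cells at day 4), 0 in place of 1 (DMH-1) and 1 in place of 3 (A83-01 against DMH-1). The shares of all genes were, in the same order, 23.5%, 12.1%, 13.3%, 7.59%, 6.88%, 10.8%, 2.91% and 9.05%. The covariate gave 3 in place of 1 (WT day 4), 3 in place of 0 (WT day 2 plus VC), 4 in place of 1 (WT day 4 plus VC and DMH-1), 2 in place of 1 (D/KO against WT at day 0 plus VC), 5 in place of 3 (difference at day 4 plus VC and A83-01 against DMH-1), 8 in place of 3 (Repsox) and 7 in place of 3 (Vactosertib). Here the shares of all genes were, in order, 22%, 32.3%, 40.9%, 23.4%, 24.9%, 30.1%, 39.7%, 38.9% and 36.7%. Only the groups compared gave 1 in place of 2 (D/KO day 2 and difference at day 2 plus VC), 3 in place of 5 (D/KO day 4 plus VC), 5 in place of 1 (WT day 4), 2 in place of 0 (WT day 2 plus VC), 0 in place of 1 (D/KO against WT at day 0 plus VC), 1 in place of 3 (VC in D/KO cells at day 4), 2 in place of 1 (DMH-1) and 3 in place of 6 (WT skin). For these fits the shares were, in order, 29.1%, 13.9%, 52%, 46.3%, 32%, 16.3%, 29.3%, 13.8% and 18.4%. Day 0 without VC gave 2 in place of 5 (D/KO day 2 plus VC), 3 in place of 0 (WT day 2 plus VC), 4 in place of 1 (WT day 4 plus VC) and 1 in place of 3 (difference at day 4 plus VC), and the 18 libraries gave 5 in place of 3 (Vactosertib). Again in order, the shares were 46.6%, 37.3%, 39.3%, 20.8% and 22.1%.

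With 1 library left out the count ran from 1 to 4 (D/KO day 2, 2 with all), 0 to 5 (D/KO against WT at day 0, 4), 0 to 1 (the same plus VC, 1), 3 to 5 (D/KO day 2 plus VC, 5), 0 to 1 (WT day 2 plus VC, 0), 1 to 3 (WT day 4 plus VC, 1), 1 to 2 (difference at day 2 plus VC, 2), 2 to 4 (VC in D/KO cells at day 2, 5), 1 to 4 (at day 4, 3), 2 to 3 (VC in WT cells at day 0, 4), 1 to 2 (at day 4, 2), 1 to 2 (Vactosertib, 3) and 0 to 1 (DMH-1, 1). A group left with 1 library fewer still had 2.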

Other observations

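Values of a few other genes in the WT 4F libraries labelled TGFB were noticed after the data were seen. Pmaip1 (Noxa), a BH3-only p53 target, was at 412, 419 and 468 CPM there, against 2.87 to 13.6 CPM in the other 57 libraries of both tables. Cdkn1a was at 1102, 1155 and 1028 CPM, beside 517, 507 and 509.8 CPM in control D/KO and 359.99, 334 and 367 CPM in control WT libraries. Gdf15 was at 37.4, 42.5 and 43.05 CPM and Ercc1 at 47.01, 47.8 and 42.3 CPM. The line in its reprogramming table libraries at day 0 had 8.73, 10.3 and 9.29 CPM of Pmaip1 and 379.6, 414 and 389 CPM of Cdkn1a, under a separate normalization. No untreated library of this line in the same table was analysed here, so these are levels and no comparison was tested.

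Perp rose at every reprogramming comparison of both lines, by a log2 fold change of 4.52 (day 2) and 6.59 (day 4) in D/KO and 2.47 and 3.51 in WT cells without VC, and by 6.15 and 8.51 in D/KO and 3.62 and 4.72 in WT cells with VC. Its day 0 levels with VC were 0.324, 0.603 and 0.140 CPM in D/KO and 0.253, 0 and 0 CPM in WT cells, so the fitted fold changes rest on few counts at day 0 and depend on the prior count.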
